A study of Rattus norvegicus with 9 samples.

Results

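Neurotrophic ligands and receptors linked to joint innervation and pain were examined in the knee after surgery on the medial meniscus. The 8 members were taken by gene symbol from the 17602 genes of the expression table. They comprised the ligands Bdnf, Ntf3, Gdnf, Artn and Nrg1 and the receptors Ngfr, Ntrk2 and Ntrk3. Expression was given as TPM, a read number scaled to transcript length and to a fixed total per library, so levels of different genes can be set side by side. All 8 passed the filter on low values (some TPM in 3 or more libraries) and were tested, and 4 of them (Ntf3, Ngfr, Ntrk2 and Ntrk3) averaged at least 1 TPM.

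Neurotrophins are secreted survival and growth factors that sensory and sympathetic axons take up from the tissue they innervate. Bdnf acts mainly on the TrkB receptor encoded by Ntrk2, Ntf3 mainly on the TrkC receptor encoded by Ntrk3, and Ngfr encodes p75NTR, which binds all neurotrophins and their precursors. Gdnf and artemin (Artn) signal through GFR-alpha coreceptors and the kinase RET, and neuregulin 1 (Nrg1) binds ErbB receptors and drives the growth and myelination of Schwann cells, the glia of peripheral nerve.

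RNA sequencing covered wild-type male Lewis rats of 10 to 12 weeks of age, with 3 libraries labelled as biological replicates in each of 3 groups. The Intact group was synovium from around the medial meniscus of knees without surgery. For Sham, this synovium was taken 1 week after a mock (sham) operation that opened and closed the joint capsule. For pMx, the material was tissue regenerating 1 week after partial medial meniscectomy, in which the anterior portion of the medial meniscus was cut away, and the adjoining synovium was trimmed off. The pMx libraries therefore differ from the Sham libraries in tissue as well as in surgery, and these differences cannot be told apart. The RNA integrity numbers listed by the study also separated the groups without overlap, lowest in Intact, intermediate in Sham and highest in pMx, and their part in the results was not tested. It was not stated whether each library came from 1 animal, so the p-values measure the spread between these libraries. In bulk tissue, fewer cells of a type and less RNA per cell cannot be told apart either.

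Each library held 15644 to 16125 genes above 0 TPM, and read depth was unknown because TPM keeps no read numbers. The synovial gene Prg4 (lubricin) and the collagen gene Col1a1 were abundant in all 9 libraries, at no less than 1084 TPM and 1128 TPM. Col1a1 averaged 1516 TPM in Intact, 4501 TPM in Sham and 15669 TPM in pMx. Intact replicate 3 stood apart, since its summed level of 16 skeletal muscle genes was 48601 TPM against 79.7 TPM and 239 TPM in Intact replicates 1 and 2, 299 to 3389 TPM in Sham and 103 to 3478 TPM in pMx. For the members, comparisons with the Intact group were repeated without this library.

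In pMx versus Sham, 2 of the 8 members rose (Bdnf and Nrg1) and 4 fell (Ntf3, Ngfr, Ntrk2 and Ntrk3), at a Benjamini-Hochberg adjusted p below 0.05 in limma. Over the 16512 genes tested, 17.7% rose and 18.9% fell, or 36.6% in either direction. All 4 falls, and neither rise, also passed an absolute log2 fold change of 1, which 3.36% of all genes passed upward and 4.85% downward. The pMx libraries lay wholly above the Sham libraries for the same 2 members (27.0% of all genes) and wholly below them for the same 4 (29.0% of all genes). The median log2 fold change of TPM + 1 was -0.53 over the 8 members and -0.01 over all genes.

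**Figure D1:**
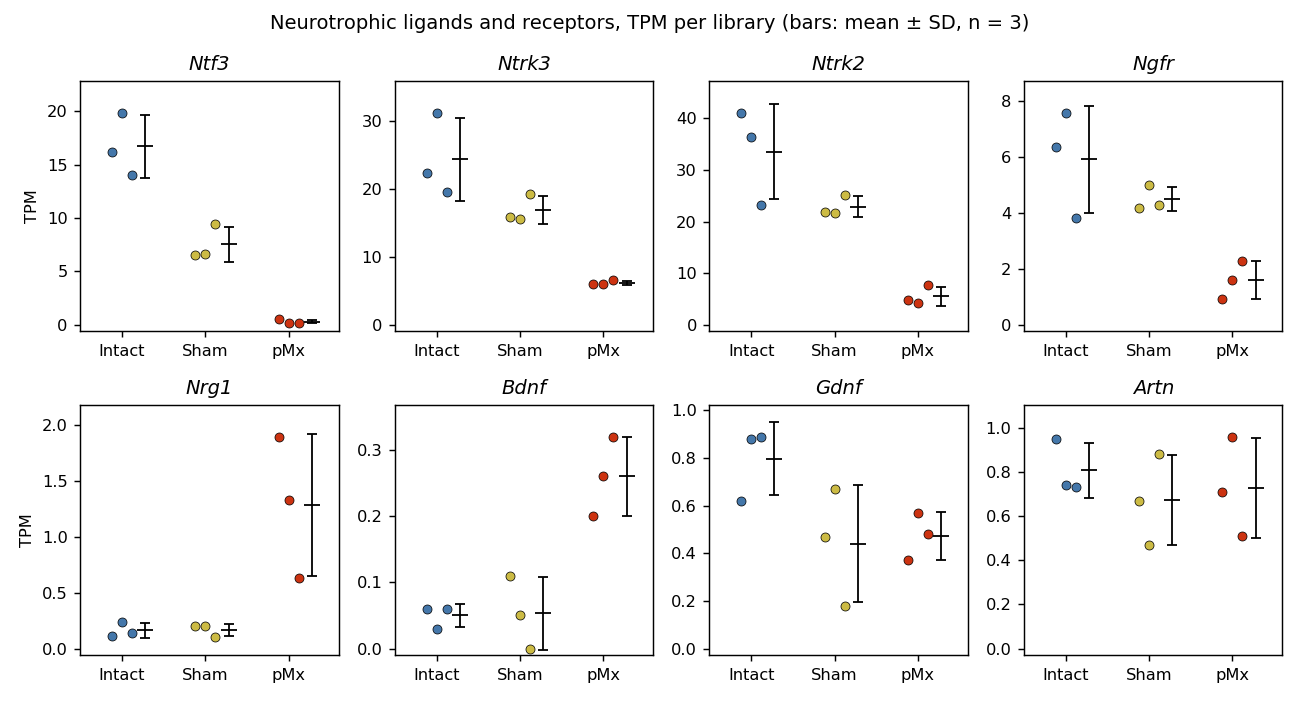
TPM of each of the 8 members (y axis, a separate linear scale from 0 in each panel) in the 3 Intact, 3 Sham and 3 pMx libraries. Points are libraries in replicate order and bars give the mean ± SD (n = 3). Ntf3, Ntrk3, Ntrk2 and Ngfr were lowest in pMx, Nrg1 and Bdnf were highest there, and the Sham and pMx ranges of Gdnf and Artn overlapped.

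The sequence before the annotated start is shown for Ntf3, the ligand with the largest difference, and for Bdnf, the neurotrophin that moved the other way. Both were read from RefSeq on the rat assembly GRCr8, as the 250 bases before a transcript start. RefSeq gives 3 starts for Ntf3 on chromosome 4 (minus strand), of which starts 1 and 2 lie 1 base apart, and 6 for Bdnf on chromosome 3 (plus strand). The windows are chr4:160670624-160670873 for Ntf3 start 1 and chr4:160668908-160669157 for Ntf3 start 3, and chr3:116621721-116621970 for Bdnf start 3 and chr3:116637608-116637857 for Bdnf start 4. Each is written 5′ to 3′ on the strand of the gene, and capitals mark matches to the motifs described in the next paragraph.
Ntf3 start 1: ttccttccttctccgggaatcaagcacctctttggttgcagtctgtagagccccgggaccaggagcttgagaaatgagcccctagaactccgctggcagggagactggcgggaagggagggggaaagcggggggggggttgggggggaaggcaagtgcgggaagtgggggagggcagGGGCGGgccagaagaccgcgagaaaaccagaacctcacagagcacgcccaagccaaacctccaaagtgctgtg
Ntf3 start 3: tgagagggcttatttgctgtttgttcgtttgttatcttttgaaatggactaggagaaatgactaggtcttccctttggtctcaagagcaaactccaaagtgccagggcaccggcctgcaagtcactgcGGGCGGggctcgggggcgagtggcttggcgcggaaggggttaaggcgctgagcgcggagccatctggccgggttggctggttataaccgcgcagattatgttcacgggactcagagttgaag
Bdnf start 3: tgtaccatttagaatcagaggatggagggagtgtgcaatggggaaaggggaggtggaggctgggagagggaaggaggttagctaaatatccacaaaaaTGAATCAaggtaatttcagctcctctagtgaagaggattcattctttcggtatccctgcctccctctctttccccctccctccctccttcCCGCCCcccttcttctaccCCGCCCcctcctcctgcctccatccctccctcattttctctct
Bdnf start 4: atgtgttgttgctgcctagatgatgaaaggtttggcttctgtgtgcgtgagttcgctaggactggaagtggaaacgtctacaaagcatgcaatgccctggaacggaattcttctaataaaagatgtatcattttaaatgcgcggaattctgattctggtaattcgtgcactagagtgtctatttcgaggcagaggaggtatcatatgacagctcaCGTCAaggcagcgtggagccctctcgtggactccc

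In all, 6 motifs were searched on both strands, and the share of 33469 rat windows of the same length that hold each was 1.59% for the CRE (TGACGTCA), 18.2% for its shorter core (TGACG), 6.34% for AP-1 (TGANTCA), 5.59% for an E-box (CACGTG), 12.9% for a TATA box (TATAAA) and 30.5% for a GC box (GGGCGG). The shorter core lies inside the full CRE, so a full match counts for both. Each Ntf3 window held 1 GC box, which begins 73 bases before start 1 and 122 bases before start 3. The window before Bdnf start 3 held 2 GC boxes and, 152 bases before the start, the sequence TGAATCA. This sequence matches the searched AP-1 pattern, in which N allows any middle base. The window before Bdnf start 4 held the shorter CRE core on the reverse strand, beginning 35 bases before the start, and no full CRE. Of the other Bdnf starts, start 2 had a TATA box match and starts 1, 5 and 6 had none of the motifs. TPM values are per gene, so the start in use was not measured.

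Ntf3 (gene ID 81737), which encodes neurotrophin-3, a factor for proprioceptive and other sensory neurons, was the most abundant of the 5 ligands in synovium. Its levels were 16.21, 19.85 and 14.06 TPM in Intact, 6.53, 6.66 and 9.45 TPM in Sham, and 0.51, 0.21 and 0.2 TPM in pMx. The 3 groups did not overlap, and every pMx library was below 1 TPM. The mean fell from 7.55 ± 1.65 TPM in Sham to 0.307 ± 0.176 TPM in pMx (SD, n = 3), a ratio of 24.6, and the log2 fold change of TPM + 1 was -2.70 (SE 0.18, 95% interval -3.11 to -2.30, adjusted p = 3.06e-05 in limma).

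Ntf3 was also the single member called in Sham versus Intact, where it fell from a mean of 16.7 ± 2.93 TPM (SD, n = 3) by 1.05 on the log2 scale (SE 0.18, limma adjusted p = 0.0105). In that comparison 5.97% of all genes fell, 6.73% rose and 12.7% were called in either direction, and 0.533% fell and 1.42% rose past a log2 fold change of 1. The call was lost at a pseudocount of 0.01 (log2 fold change -1.15, adjusted p = 0.0656). Without Intact replicate 3 the fall was -1.17 on the log2 scale (adjusted p = 0.00752). From Intact to pMx the ratio of the means was 54.5 (log2 fold change -3.76, limma adjusted p = 2.67e-06, and -3.87 without Intact replicate 3).

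Bdnf (gene ID 24225), the neurotrophin released by sensory neurons in pain states, was the member with the lowest mean in each group. It was at 0.06, 0.03 and 0.06 TPM in Intact, at 0.11, 0.05 and 0 TPM in Sham, and at 0.2, 0.26 and 0.32 TPM in pMx. All 3 pMx libraries were above all 6 synovium libraries, yet all 9 values were below 1 TPM. The pMx mean of 0.26 ± 0.06 TPM was 4.88 times the Sham mean of 0.0533 ± 0.0551 TPM (SD, n = 3), in which 1 library is listed at 0. With Sham values from 0 to 0.11 TPM, this ratio depends strongly on single Sham libraries. At this level the pseudocount sets the size of the fold change, which was 0.26 with a pseudocount of 1 (SE 0.06) and 1.28 with a pseudocount of 0.1, at limma adjusted p of 0.00869 and 0.011. Sham and Intact differed by 0.00 on the log2 scale (95% interval -0.13 to 0.14, adjusted p = 0.98), and by 0.01 without Intact replicate 3.

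Nrg1 (gene ID 112400), whose product on axons regulates Schwann cell number and myelin, was at 0.11, 0.24 and 0.14 TPM in Intact and at 0.2, 0.2 and 0.1 TPM in Sham. In pMx it was at 1.9, 1.33 and 0.63 TPM, so that every pMx library exceeded every synovium library while the pMx libraries differed among themselves by more than the synovium libraries did. The pMx mean was 1.29 ± 0.636 TPM against 0.167 ± 0.0577 TPM in Sham (SD, n = 3), a ratio of 7.72. The log2 fold change of TPM + 1 was 0.93 (SE 0.18, limma adjusted p = 0.00402), and with a pseudocount of 0.1 it was 2.29 (adjusted p = 0.00197). Sham and Intact had nearly equal means, with a 95% interval of -0.40 to 0.41 for the log2 difference, and of -0.50 to 0.48 without Intact replicate 3.

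Gdnf and Artn, ligands of the GDNF family, stayed below 1 TPM in all 9 libraries and were not called in any comparison of the main fit. Gdnf (gene ID 25453) was at 0.62, 0.88 and 0.89 TPM in Intact, 0.47, 0.67 and 0.18 TPM in Sham, and 0.37, 0.57 and 0.48 TPM in pMx. The pMx range lay inside the Sham range and below the Intact range, with a log2 difference from Sham of 0.05 (95% interval -0.25 to 0.34, limma adjusted p = 0.823) and from Intact of -0.28 (95% interval -0.58 to 0.01, adjusted p = 0.0989). Gdnf was called in pMx versus Intact without Sham replicate 3 (limma adjusted p = 0.0402) and in a fit of the pMx and Intact libraries alone. Artn (gene ID 362572) was at 0.95, 0.74 and 0.73 TPM in Intact, 0.67, 0.47 and 0.88 TPM in Sham, and 0.71, 0.96 and 0.51 TPM in pMx. These ranges all overlapped, and the log2 difference of pMx from Sham was 0.04 (95% interval -0.23 to 0.32, adjusted p = 0.817).

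Ntrk2 (gene ID 25054), the TrkB gene, had the highest mean of the 8 members in Intact and Sham. It was at 41.04, 36.31 and 23.27 TPM in Intact, 21.83, 21.66 and 25.15 TPM in Sham, and 4.77, 4.27 and 7.64 TPM in pMx. All pMx libraries lay below all synovium libraries, and the lowest Intact value, in replicate 3, fell within the Sham range. The mean fell from 22.9 ± 1.97 TPM in Sham to 5.56 ± 1.82 TPM in pMx (SD, n = 3), a ratio of 4.12 and a log2 fold change of -1.90 (SE 0.24, limma adjusted p = 0.000449). Sham versus Intact gave -0.50 (adjusted p = 0.206), and without Intact replicate 3 it gave -0.73 (adjusted p = 0.0413).

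Ntrk3 (gene ID 29613), the TrkC gene, was at 22.35, 31.25 and 19.52 TPM in Intact, 15.92, 15.58 and 19.26 TPM in Sham, and 6.09, 6 and 6.56 TPM in pMx. The 3 groups did not overlap, and the pMx libraries were close to each other (6.22 ± 0.301 TPM, SD, n = 3). Ntrk3 fell in pMx versus Sham with a ratio of means of 2.72 and a log2 fold change of -1.31 (SE 0.16, limma adjusted p = 0.000428). The Sham mean of 16.9 ± 2.03 TPM against 24.4 ± 6.12 TPM in Intact (SD, n = 3) gave -0.48 (adjusted p = 0.0879), and without Intact replicate 3 the difference was -0.62 (adjusted p = 0.0275). Both Trk genes also produce forms without the kinase domain, which a per-gene value does not separate.

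Ngfr (gene ID 24596), the p75NTR gene, which Schwann cells and some stromal cells express, was at 6.35, 7.57 and 3.82 TPM in Intact, 4.19, 4.99 and 4.29 TPM in Sham, and 0.94, 1.59 and 2.29 TPM in pMx. The pMx libraries were below all others, while Sham lay inside the Intact range. The mean fell from 4.49 ± 0.436 TPM in Sham to 1.61 ± 0.675 TPM in pMx (SD, n = 3), a log2 fold change of -1.10 (SE 0.24, limma adjusted p = 0.00812). Sham versus Intact gave -0.29 (adjusted p = 0.478), and -0.53 without Intact replicate 3 (adjusted p = 0.119).

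**Figure D2:**
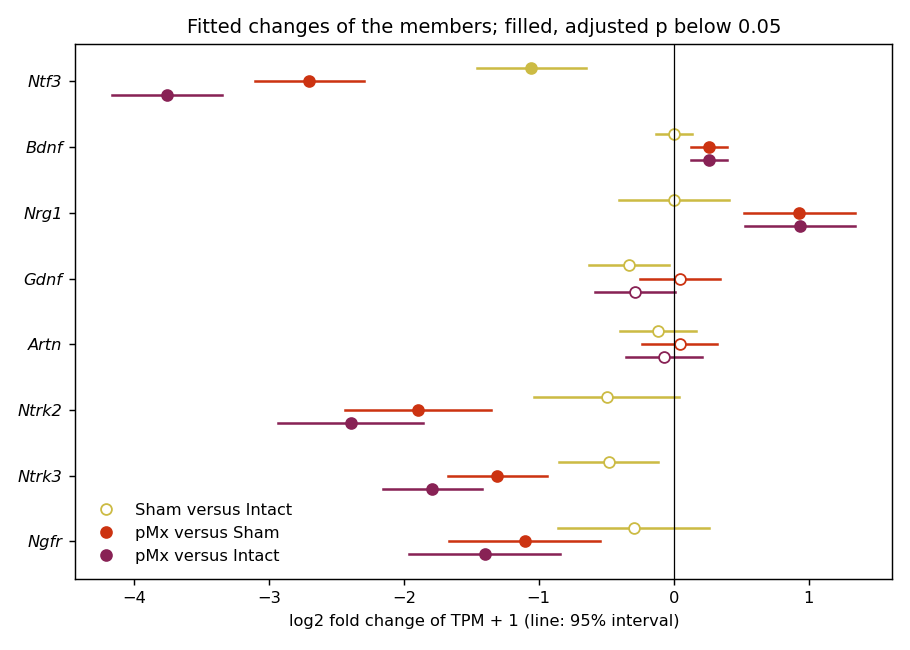
Log2 fold change of TPM + 1 (x axis) of each member in Sham versus Intact, pMx versus Sham and pMx versus Intact, with 95% intervals from limma as lines. Filled points have an adjusted p below 0.05. The comparisons share libraries. Filled points lie to the left of 0 for Ntf3, Ntrk2, Ntrk3 and Ngfr and to the right for Bdnf and Nrg1.

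In pMx versus Intact, the same 2 members rose and the same 4 fell, also without Intact replicate 3. The call of Bdnf was lost at a pseudocount of 0.01 (limma adjusted p = 0.0637). Of all genes, 23.4% rose, 27.1% fell and 50.6% were called in either direction, and 6.40% rose and 7.89% fell past a log2 fold change of 1, as did the 4 falling members. The groups did not overlap for 2 members that were higher in pMx (26.9% of all genes) and 5 that were lower (30.6% of all genes), Gdnf being the fifth. In Sham versus Intact the groups did not overlap for Ntf3 and Ntrk3, both lower in Sham (16.4% of all genes), and for no member in the other direction (14.2% of all genes). The Sham libraries enter both pMx versus Sham and Sham versus Intact, so those results are not independent of each other.

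The order of the levels differed between groups. In Intact and Sham the mean TPM ran from Ntrk2 through Ntrk3, Ntf3, Ngfr, Artn, Gdnf and Nrg1 down to Bdnf. Neighbours that overlapped in Sham were Artn with Gdnf, Gdnf with Nrg1 and Nrg1 with Bdnf, whereas in Intact they were Ntrk2 with Ntrk3, Ntrk3 with Ntf3, and Artn with Gdnf. In pMx the order was Ntrk3, Ntrk2, Ngfr, Nrg1, Artn, Gdnf, Ntf3 and Bdnf. There the single pair of neighbours without overlap was Ntrk2 and Ngfr, and Ntf3 had moved from rank 3 to rank 7.

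Ratios within a library compare a ligand with its receptor free of differences in the total. The ratio of Ntf3 to Ntrk3 TPM was 0.694 ± 0.0506 in Intact, 0.443 ± 0.0424 in Sham and 0.0497 ± 0.0295 in pMx (SD, n = 3), with no overlap between any groups. The two-sided exact permutation p was 0.1 for each pair of groups, the smallest that 3 against 3 libraries allow. The ratio of Nrg1 to Erbb3, a neuregulin receptor of Schwann cells, was 0.0160 ± 0.00768, 0.0158 ± 0.00657 and 0.199 ± 0.0936 in the same order, and the pMx libraries were again apart (exact permutation p = 0.1 for pMx versus Sham and 0.9 for Sham versus Intact). The ratio of Artn to Gfra3, which encodes the artemin coreceptor, was 0.153, 0.174 and 2.08 on average, where Gfra3 fell in pMx versus Sham and Artn was not called. In pMx, Gfra3 was at 0.24 to 0.48 TPM and Artn at 0.51 to 0.96 TPM. The counting error at such levels is unknown, so the size of that ratio is uncertain. Over Intact replicates 1 and 2 alone, the mean ratios were 0.680 for Ntf3 to Ntrk3, 0.0150 for Nrg1 to Erbb3 and 0.150 for Artn to Gfra3.

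Among the other genes of these pathways, 66 of 68 listed genes were in the table and tested. In pMx versus Sham 13 rose and 15 fell, shares that can be read against the 36.6% of all genes called, and 4 and 6 of them passed a log2 fold change of 1. Their median log2 fold change was 0.03 against -0.01 over all genes. In Sham versus Intact 9 rose and 5 fell, where 12.7% of all genes were called, and in pMx versus Intact 18 rose and 17 fell, where 50.6% of all genes were called. The number of calls in Sham versus Intact moved with single libraries, for these genes and over the whole table. The 14 calls became 4 without Sham replicate 2, 5 without Sham replicate 1, 6 without Intact replicate 2, 9 without Sham replicate 3 or pMx replicate 2, and 19 without Intact replicate 3. Over all 16512 genes tested, the 2097 calls became 628 without Sham replicate 2, 734 without Sham replicate 1, 1091 without Intact replicate 2 and 2969 without Intact replicate 3.

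**Figure D3:**
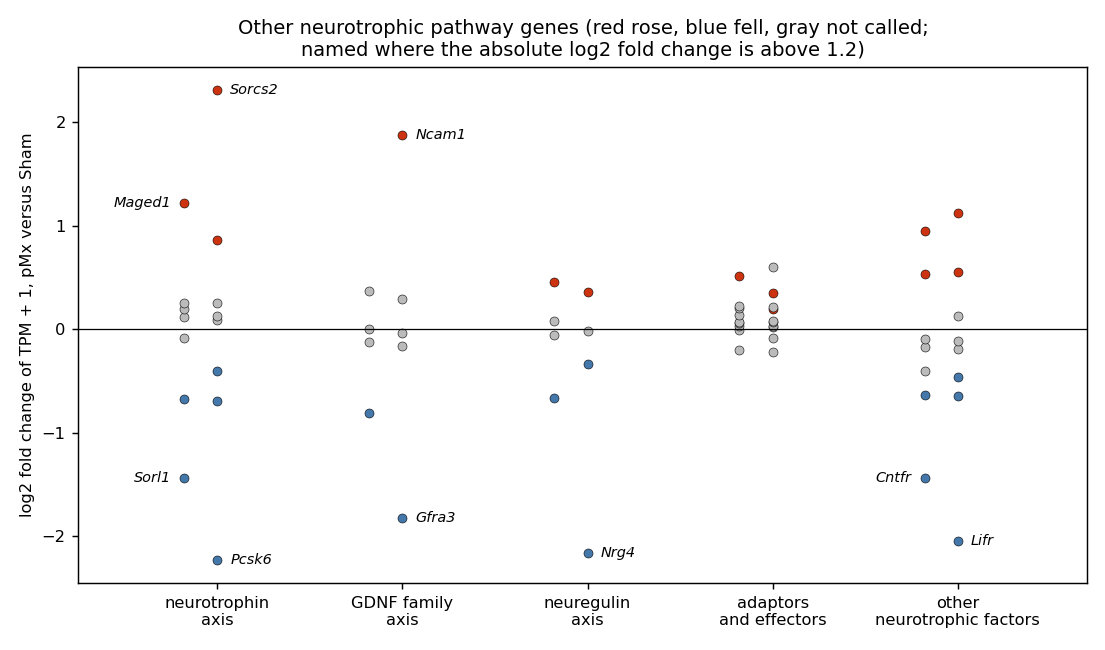
Log2 fold change of TPM + 1 in pMx versus Sham (y axis) of the 66 other pathway genes, grouped by list (x axis). Points are genes, red where they rose, blue where they fell and gray where they were not called. The genes with the largest changes are named, with Sorcs2 the highest and Pcsk6 the lowest.

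In the neurotrophin list, 3 of 15 genes rose and 5 fell in pMx versus Sham, where 17.7% of all genes rose and 18.9% fell. Sorcs2, a sorting receptor that binds proneurotrophins together with p75NTR, was at 3, 3.66 and 2.6 TPM in Intact, 12.13, 17.11 and 8.52 TPM in Sham, and 62.92, 73.89 and 56.86 TPM in pMx. The 3 groups did not overlap, and Sorcs2 rose in both steps (log2 fold change 1.69, adjusted p = 0.00497 for Sham versus Intact, and 2.31, adjusted p = 0.000132 for pMx versus Sham, limma). Sortilin (Sort1), the related proneurotrophin receptor, fell in both steps, from 58.2 ± 9.72 to 40.7 ± 2.16 to 25.1 ± 2.62 TPM (SD, n = 3), at adjusted p = 0.0373 and 0.00329. Its Sham versus Intact call was lost in 7 of the 9 fits with 1 library left out (adjusted p of 0.0591 to 0.117 there), and was kept without Intact replicate 3, as was that of Sorcs2. The ratio of Sorcs2 to Sort1 was 0.0488 to 0.0555 over the Intact libraries and 2.02 to 3.13 over the pMx libraries.

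Pcsk6, which encodes the proprotein convertase PACE4, fell from 237 ± 28.6 TPM in Intact to 119 ± 26.0 TPM in Sham and 24.2 ± 3.20 TPM in pMx (SD, n = 3, limma adjusted p = 0.0109 and 5.29e-05). Sorl1, a sorting receptor of the same family as sortilin, fell from 2.67 ± 0.133 TPM in Sham to 0.357 ± 0.165 TPM in pMx (adjusted p = 0.000426). Maged1, an adaptor of p75NTR, rose from 131 ± 10.4 to 306 ± 18.5 TPM (adjusted p = 5.43e-05). Neither was called in Sham versus Intact, with log2 differences of 0.04 for Sorl1 (adjusted p = 0.917) and 0.28 for Maged1 (adjusted p = 0.0918). Ntf4, which encodes neurotrophin-4, another TrkB ligand, averaged 0.55 TPM in Sham and was not called in pMx versus Sham (log2 difference 0.12, adjusted p = 0.489).

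In the GDNF family list, 1 of 9 genes rose and 2 fell in pMx versus Sham, where 17.7% of all genes rose and 18.9% fell. Ncam1, an adhesion molecule that is an alternative GDNF receptor, rose from 3.08 ± 0.747 TPM in Intact to 8.53 ± 3.71 TPM in Sham and 32.5 ± 4.29 TPM in pMx (SD, n = 3, limma adjusted p = 0.0277 and 0.00088), the first of these calls being lost in 4 of the 9 fits with 1 library left out. Gfra3 fell from 3.91 ± 0.560 TPM in Sham to 0.383 ± 0.127 TPM in pMx (log2 fold change -1.83, adjusted p = 4.33e-05), and Gfra2, the neurturin coreceptor, fell by 0.81 on the log2 scale (adjusted p = 0.00547). The GDNF coreceptor Gfra1 was at 24.6 ± 1.38 TPM in Sham and 24.0 ± 3.24 TPM in pMx (log2 difference -0.04, 95% interval -0.41 to 0.33). Ret rose from 3.04 ± 0.644 TPM in Intact to 5.35 ± 0.175 TPM in Sham (adjusted p = 0.0349), a call lost in 6 of the 9 fits with 1 library left out, among them that without Intact replicate 3 (adjusted p = 0.0585), and was at 5.44 ± 1.21 TPM in pMx, with a pMx versus Sham interval of -0.38 to 0.38. Of the 3 receptors Ret, Gfra1 and Gfra3, Gfra3 alone was called in pMx versus Sham.

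In the neuregulin list, 8 of 9 genes were in the table. Of these 8, 2 rose and 3 fell in pMx versus Sham, where 17.7% of all genes rose and 18.9% fell. Nrg4, a neuregulin made by adipose tissue, was at 5.85, 6.39 and 4.87 TPM in Sham and fell to 0.66, 0.32 and 0.5 TPM in pMx (log2 fold change -2.17, limma adjusted p = 3.63e-05). Nrg4 exceeded Nrg1 in every synovium library, and Nrg1 exceeded Nrg4 in all 3 pMx libraries. Beside this change, the 10 adipocyte markers all fell in pMx versus Sham, their sum being 4570 to 4974 TPM in Sham and 357 to 532 TPM in pMx with Adipoq at 0.71 to 11.65 TPM, and their part in the result was not tested. Among the receptors, Erbb3 fell (log2 fold change -0.67, adjusted p = 0.0374) and Erbb2 rose (0.46, adjusted p = 0.0152). Bace1, a protease that processes neuregulin 1, rose by 0.36 (adjusted p = 0.0405). With 1 library left out, these calls were lost in 6 of 9 fits for Erbb3, 3 of 9 for Erbb2 and 6 of 9 for Bace1, at adjusted p of up to 0.126.

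Over all genes, 17.7% rose and 18.9% fell in pMx versus Sham, or 36.6% in either direction. Of 19 adaptors and effectors of Trk and p75NTR signalling, 3 rose (Shc1, Shc2 and Irak1, with log2 fold changes of 0.51, 0.35 and 0.20 in limma) and 16 were not called. The call of Shc2 was lost in 6 and that of Irak1 in 5 of the 9 fits with 1 library left out. Of 15 genes for other neurotrophic factors and their receptors, 4 rose and 5 fell. The receptor chains Lifr and Cntfr, which bind leukemia inhibitory factor and ciliary neurotrophic factor, fell by 2.05 and 1.44 on the log2 scale in pMx versus Sham (limma adjusted p = 2.65e-05 and 0.0019). Midkine (Mdk), a heparin-binding growth factor, rose by 0.94 (adjusted p = 0.00437). All 3 of these genes were also called in the same direction in Sham versus Intact, also without Intact replicate 3, and the call of Cntfr there was lost in 4 of the 9 fits with 1 library left out.

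Schwann cell and nerve markers were read in the same libraries, since Schwann cells also transcribe Ngfr, Ntrk2, Ntrk3 and Erbb3. Of 24 tested Schwann cell markers, 18 fell and 1 rose in pMx versus Sham, where 18.9% of all genes fell and 17.7% rose, and their median log2 fold change was -0.72. In Sham versus Intact 3 of them fell, where 5.97% of all genes fell. Without Intact replicate 3, 10 of the 24 Schwann cell markers fell, where 11.7% of all genes fell. Their sum was 689 to 1018 TPM in Intact, 765 to 909 TPM in Sham and 370 to 393 TPM in pMx. Of the 25 listed genes, Fabp7 was at 0 in all pMx libraries, and it was also at 0 in all Intact libraries and above 0 in 1 Sham library alone (0.54 TPM). Sox10, the transcription factor that defines the Schwann lineage, was at 2.47 to 2.62 TPM in Sham and at 0.16, 0.31 and 0.27 TPM in pMx (log2 fold change -1.50, limma adjusted p = 4.74e-05), and S100b, a calcium-binding protein of Schwann cells and adipocytes, fell by 1.62. These markers moved with the 4 members that fell, and their part in those results was not tested.

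Ngfr was reduced less than Sox10, and the ratio of Ngfr to Sox10 was 1.74 ± 0.290 in Intact, 1.78 ± 0.215 in Sham and 6.50 ± 1.76 in pMx (SD, n = 3). The pMx ratios lay above all the others (two-sided exact permutation p = 0.1 against Sham, and 0.8 for Sham against Intact). They divide by Sox10 values of 0.16 to 0.31 TPM, whose counting error is unknown, so their size is uncertain. The rise of Nrg1 ran against the Schwann cell list. Of 8 tested genes of a repair Schwann cell list, 1 rose and 3 fell in pMx versus Sham, where 17.7% of all genes rose and 18.9% fell. Their sum was 189 to 350 TPM in Intact, 169 to 217 TPM in Sham and 151 to 157 TPM in pMx. Jun (85.21 to 88.89 TPM in pMx) and Atf3 (42.51 to 47.04 TPM) made up most of the pMx sum. Of the 9 listed, Shh and Olig1 were at 0 in all pMx libraries and no higher than 0.19 TPM in any library.

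Markers of axons showed no common direction in pMx versus Sham, with a median log2 fold change of 0.03. By limma, 4 of 16 tested genes were higher and 4 lower, where 17.7% of all genes rose and 18.9% fell. The 20 axon genes in the table summed to 64.6 to 89.6 TPM in Intact, 74.2 to 105 TPM in Sham and 120 to 127 TPM in pMx. Uchl1 (53.86 to 60.44 TPM) and Tubb3 (27.87 to 29.82 TPM) made up most of the pMx sum. Npy, which was lower in pMx, was the largest part in Intact and Sham. The sum therefore follows single genes, and it was not tested as a measure of axon content. Of the 20 genes, 3 (Calcb, Isl1 and Pou4f1) were at 0 in all pMx libraries and below 0.5 TPM elsewhere. Calca, the CGRP gene of peptidergic nociceptors, was at 0.15, 0.16 and 0 TPM in Intact, listed at 0 in all 3 Sham libraries, and at 0.42, 0.63 and 0.31 TPM in pMx. It is 1 of the 4 genes counted as higher, but it was above 0 TPM in only 2 libraries outside pMx and so passed the filter of 3 libraries only through the group where it is high. Its call against a Sham group listed at 0, at levels below 1 TPM throughout, is therefore not read as a result. Prph, an intermediate filament of peripheral neurons, had an adjusted p of 0.0533.

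The other axon markers called were named after their values were seen. The nociceptor channel gene Trpv1 fell from 2.02, 2.01 and 1.78 TPM in Sham to 0.68, 1.01 and 0.83 TPM in pMx (limma adjusted p = 0.00781). P2rx3, a purine receptor of sensory neurons, fell from 0.66, 1.03 and 0.72 TPM to 0.38, 0.37 and 0.27 TPM (adjusted p = 0.041). Stmn2, a growth cone protein, fell from 10.81 to 14.65 TPM in Sham to 1.44 to 3.99 TPM in pMx (adjusted p = 0.000458), and the peptide gene Npy from 23.35 to 54.76 TPM to 9.22 to 18.97 TPM (adjusted p = 0.00935). In Intact, Stmn2 was at 2.83 to 3.74 TPM, inside its pMx range. It was called in Sham versus Intact, higher in Sham, and was not called in pMx versus Intact. Nefh, a neurofilament gene, Uchl1 and Tubb3 rose, Uchl1 from 6.93 to 14.13 TPM in Sham to 53.86 to 60.44 TPM in pMx (adjusted p = 0.000139) and Tubb3 from 5.55 to 10.35 TPM to 27.87 to 29.82 TPM (adjusted p = 0.000151).

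Markers of other cell types that can carry these transcripts were also read. In pMx versus Sham, 17.7% of all genes rose and 18.9% fell, or 36.6% in either direction. The summed level of 11 pericyte and smooth muscle markers was 4057 to 5670 TPM in Intact, 2867 to 3133 TPM in Sham and 1968 to 2045 TPM in pMx, and 4 fell and 1 rose in pMx versus Sham, while Rgs5 was not called (adjusted p = 0.597). For 11 endothelial markers the ranges were 1165 to 1532, 974 to 1050 and 782 to 989 TPM, with 4 falling and Pecam1 not called (adjusted p = 0.379). The endothelial sums of Sham and pMx overlapped. For 12 macrophage markers the ranges were 1389 to 2203, 2318 to 2384 and 1538 to 2087 TPM, with 3 falling and 1 rising, namely Cd68 (limma adjusted p = 0.0428). Cd163 went the other way, from 26.27 to 27.78 TPM in Sham to 3.75 to 6.38 TPM in pMx. The macrophage sums of Intact and pMx overlapped. For 12 synovial fibroblast genes they were 11671 to 16351, 21039 to 24177 and 43908 to 47634 TPM, with 4 rising, Col1a1 among them, and 5 falling. The part of these cell types in the members' results was not tested.

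On a common scale, with the Intact mean as 100%, Ntf3 was at 45.2% in Sham and 1.84% in pMx. Ntrk2 was at 68.2% and 16.6%, Ntrk3 at 69.4% and 25.5%, and Ngfr at 75.9% and 27.2%. The Schwann cell sum was at 94.9% and 42.2% and the adipocyte sum at 91.5% and 7.95%. Fabp4 made up 85.1% of the adipocyte sum in pMx, and 6 of the 10 adipocyte markers had a lower percentage there than Ntf3. Nrg1 stood at 102% in Sham and 788% in pMx, and the synovial fibroblast sum at 158% and 316%. In pMx, Col1a1, Col3a1 and Lum made up 88.2% of that sum, while over its 12 genes the median log2 fold change in pMx versus Sham was 0.02. With Intact replicates 1 and 2 alone as 100%, the pMx levels were 1.70% for Ntf3, 14.4% for Ntrk2, 23.2% for Ntrk3, 23.1% for Ngfr, 735% for Nrg1, 37.8% for the Schwann cell sum and 6.80% for the adipocyte sum. These percentages are descriptions of 3 libraries a group and were not compared by a test.

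**Figure D4:**
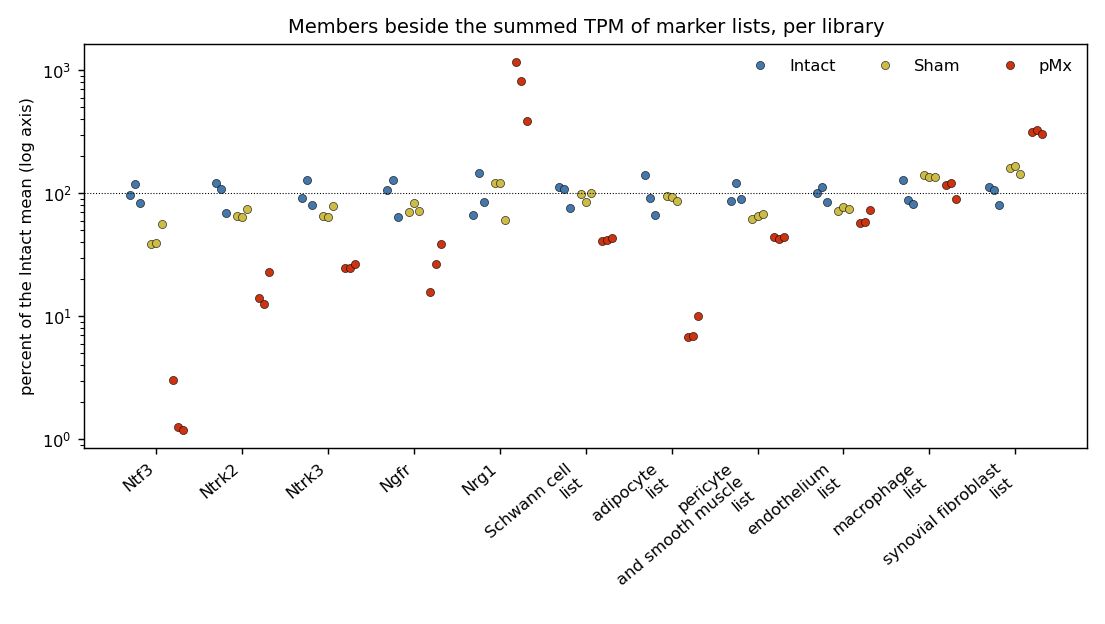
TPM of 5 members and summed TPM of 6 marker lists in each library, as a percent of the mean of the Intact libraries (y axis, logarithmic; dotted line at 100%). Points are libraries. The pMx libraries of Ntf3 lie lowest, at a mean of 1.84%, and those of Nrg1 highest, at a mean of 788%.

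Genes with a profile like that of a member were ranked by the root mean square (RMS) difference of centred log2(TPM + 1) over the 9 libraries, for the 5 members that spanned at least 1 on that scale. Ntrk3 was closest to Mmp17 (RMS difference 0.0940), Kank1 (0.0973) and Niban1 (0.0983), and Mmp17 ran from 13.69 to 21.6 TPM in Intact, 12.51 to 13.9 TPM in Sham and 4.34 to 4.93 TPM in pMx. Ntrk2 was closest to Bmp4 (0.156), Atf5 (0.167) and Mgll (0.167), and Ngfr to Ccnd2 (0.158), Akap7 (0.164) and Ltbp1 (0.172). Ntf3 was closest to Akr1c19 (0.174), Fmo2 (0.183) and Aldh1a3 (0.195), of which Fmo2 was at 5.98 to 8.39 TPM in Sham and 0.06 to 0.25 TPM in pMx. Nrg1 was closest to Nrk (0.120), Gli3 (0.138) and Pak3 (0.141). With 3 groups of libraries, many genes can share such a profile, and the lists are given as a description.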

How the data were processed

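RNA sequencing libraries were made by BGI from mRNA selected with oligo-dT, with dUTP in the second strand, and sequenced as DNA nanoballs. The authors deposited 1 table of TPM values for 17602 genes and 9 libraries. Per the labels, the submitters' processing notes name HISAT2 2.0.4 and the build mRatBN7.2, while the counting tool, annotation and filters are not given in the sources used here. Because every library sums to the same total, abundant genes that gain TPM take it from the rest. All value columns were mapped to samples by their titles.

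The members and gene lists were chosen with earlier results of these data known. Genes at 0 TPM in more than 6 of the 9 libraries were left out. The other 16512 were fitted as log2(TPM + 1) with 1 mean per group, using limma 3.58.1 (R 4.3.3) with a mean-variance trend in eBayes. P-values were adjusted by Benjamini-Hochberg over all genes tested in a comparison, and genes with an adjusted p below 0.05 were called. The pseudocount of 1 makes fold changes of genes around 1 TPM or lower too small. The study's own thresholds, which add an absolute log2 fold change above 1, were an alternative. The script was tested on simulated data.

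Named genes were all members, up to 4 called genes per pathway list with the largest change in pMx versus Sham, fixed partners of the members, defining markers, and the 3 genes most like a member. Nrg3, Gfral, Tac1, Scn11a and Trpa1 were listed and not analysed here, and some named genes are not reported here. RefSeq tables of GRCr8 gave names (17419 of 17602 identifiers, 99.0%, matched) and promoter windows; they hold windows for Bdnf, Ntf3, Gdnf and Artn. Apart from the windows shown above on GRCr8, gene positions are not given, since the builds differ. Exact permutation tests of ratios used SciPy 1.17.1, and plots used Matplotlib 3.10.9. Alternatives covered the pseudocount, the filter, the scaling, the libraries in the fit, the mean-variance trend, a replicate block, leaving out each library and the fold threshold.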

Additional observations from a re-analysis of the deposited data

How the results depend on the processing

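The number of members called in pMx versus Sham was 6 in every fit that kept all 8 members and used the adjusted p alone, including each of the 9 fits with 1 library left out. It was 4 of 4 with a minimum mean of 1 TPM, which removes Bdnf, Gdnf, Artn and Nrg1, and 4 of 8 with the fold threshold added. In pMx versus Intact it ranged from 4 to 7. In Sham versus Intact it was 1, fell to 0 at a pseudocount of 0.01 and ranged from 1 to 3 with 1 library left out, the 3 arising without Intact replicate 3 (Ntf3, Ntrk2 and Ntrk3). The number of pathway genes called with the fold threshold added was 10 in place of 28 in pMx versus Sham, 5 in place of 14 in Sham versus Intact and 14 in place of 35 in pMx versus Intact. In Sham versus Intact it was also 5 in a fit of those 6 libraries and 4 to 19 with 1 library left out. With the replicate number as a block it was 9. The calls over all 16512 genes in Sham versus Intact moved in the same fits, from 2097 to 687 in the 6 libraries, to 628 to 2969 with 1 library left out and to 1585 with the replicate block. Same-numbered libraries did not deviate together in every pair (correlations of 0.03 to 0.48 for pMx with Sham, and a mean of -0.30 for Sham with Intact), so the numbers were not taken as pairs, and the block left the members called at 6, 1 and 6. Some differences that were not called changed sign. Bdnf in Sham versus Intact was -0.0264 at a pseudocount of 0.1, -0.48 at 0.01 and -0.0135 after quantile normalization, and -0.0351 to 0.0402 with 1 library left out. Nrg1 in Sham versus Intact was -0.0260 after quantile normalization and -0.0285 to 0.0514 with 1 library left out. Artn in pMx versus Intact was 0.0575 after quantile normalization and -0.17 to 0.0213 with 1 library left out. With 1 library left out, Gdnf and Artn in pMx versus Sham ranged from -0.0910 to 0.16 and from -0.0512 to 0.14. The call of Bdnf in pMx versus Intact was lost at a pseudocount of 0.01 (adjusted p = 0.0637, limma), and Gdnf was called in pMx versus Intact in the fit of those 6 libraries (adjusted p = 0.0472) and without Sham replicate 3 (adjusted p = 0.0402). The causes were not tested. Depth is unknown, so values below 1 TPM, which include every Bdnf, Gdnf and Artn value, carry an unknown counting error.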
